A study of Sus scrofa with 9 samples.

Results

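The spermatogonial stem cell markers described here are 10 genes whose products are used to find or study the stem and progenitor spermatogonia of mammalian testes: UCHL1, TSPAN33, NANOS3, ETV5, POU3F1, BCL6B, ID4, FOXO1, ZBTB16 and SOX3. They were taken by gene symbol from the pig gene identifiers of the deposited tables, and all 10 were found among the 22342 genes, of which 14749 carried a symbol. RNA came from pig testis cells labelled as spermatogonia, spermatocytes or round spermatids, with 3 libraries per stage and 9 in all. Spermatogonia are the mitotic germ cells that include the stem cells, spermatocytes pass through meiosis, and round spermatids are its haploid products. The sources used here give no genotype, breed, age, treatment or method of isolation. The deposited columns taken as spermatogonia carry the KIT receptor in their headings, which in the mouse is gained when spermatogonia leave the stem cell state, and those taken as spermatocytes carry the pachytene stage of meiosis. The series followed gene expression through these stages beside chromatin structure.

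Levels are estimated counts scaled to each library's normalised total (CPM), and a mean ± SD covers n = 3 libraries. Library totals ran from 47963279 to 64639201 estimated counts. Differences are log2 fold changes ± standard error from edgeR's quasi-likelihood test over all 9 libraries. A gene was called where the p-value, adjusted by the Benjamini-Hochberg method over the 16802 genes that passed a filter on low counts, lay below 0.05. All 10 markers passed that filter. In RNA from bulk samples, fewer cells of a type and less RNA per cell cannot be told apart. No animals are named in the labels, and the p-values therefore reflect how much these libraries vary, some of which may be technical.

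Stem cells of the testis divide to renew themselves and to supply cells that differentiate towards meiosis. Sertoli cells, the somatic nurse cells of the seminiferous tubule, feed them with the growth factor GDNF, which acts through the receptor pair of GFRA1 and RET. In the mouse, GDNF raises the transcription factors ETV5, BCL6B, POU3F1 and ID4 in cultured germ cells. FOXO1 and ZBTB16 are transcription factors that the mouse needs to keep its stem cells, and NANOS3 is an RNA-binding repressor of early germ cells. UCHL1 is a ubiquitin hydrolase widely used to stain spermatogonia in pigs. Several of these genes are also active in somatic cells. ID proteins and FOXO1 occur in many cell types, and BCL6B was first studied outside the germ line.

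Markers of cells other than the labelled ones were detected in the libraries. Whether their RNA came from such cells or from the labelled cells was not tested. The 8 myoid (smooth muscle) markers summed to 19.4 to 20.9 TPM, the deposited unit that allows for gene length, in spermatogonia, to 6.33 to 13.2 TPM in spermatocytes and to 2869 to 4317 TPM in round spermatids, where ACTA2, the actin of smooth muscle, was the highest with a mean of 1184 TPM. The 6 stromal markers, led by DCN, reached 1761 to 3148 TPM in round spermatids, against 43.2 to 46.9 TPM in spermatogonia. The 12 Sertoli cell markers summed to 308 to 312 TPM in spermatogonia, 15.5 to 24.7 TPM in spermatocytes and 723 to 1288 TPM in round spermatids. The 7 Leydig cell markers found of 8, which belong to steroid-producing cells, summed to 583 to 614 TPM in spermatogonia, mostly from INSL3, against 2.68 to 4.08 TPM in spermatocytes and 28.7 to 58.6 TPM in round spermatids. Endothelial markers (8 found of 11) summed to 86.4 to 152 TPM in round spermatids and leukocyte markers (8 of 8) to 22.5 to 30.8 TPM, with at most 18.5 and 2.93 TPM in every library of the other stages. The 8 spermatid markers, led by the protamine PRM1, summed to 18269 to 18465 TPM in spermatogonia, 3112 to 10720 TPM in spermatocytes and 37223 to 47341 TPM in round spermatids. The 8 spermatocyte markers summed to 1035 to 1083 TPM in spermatogonia, 2510 to 3066 TPM in spermatocytes and 363 to 514 TPM in round spermatids. KIT was at 6.36 ± 0.165 CPM in spermatogonia, 7.47 ± 0.747 CPM in spermatocytes and 24.6 ± 1.54 CPM in round spermatids. The 3 spermatogonia libraries resembled each other closely (correlation of log2 CPM across genes at 0.997 for every pair). Within its stage round spermatids 2 had the highest sums of all 6 lists of somatic markers on TPM. Its sums of spermatid markers (47341 TPM, against 43877 and 37223 TPM) and spermatocyte markers (514 TPM, against 367 and 363 TPM) were highest too. A higher sum on TPM in that library was thus not particular to somatic markers. On CPM only the endothelial sum was highest in round spermatids 2 (252 CPM, against 233 and 236 CPM). Its sums of myoid, stromal and leukocyte markers were the lowest of its stage. Among single genes, 4 of the 6 stromal markers were highest there. COL1A1, the largest part of the stromal sum, was lowest there (2876 CPM, against 5465 and 4846 CPM).

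**Figure D1:**
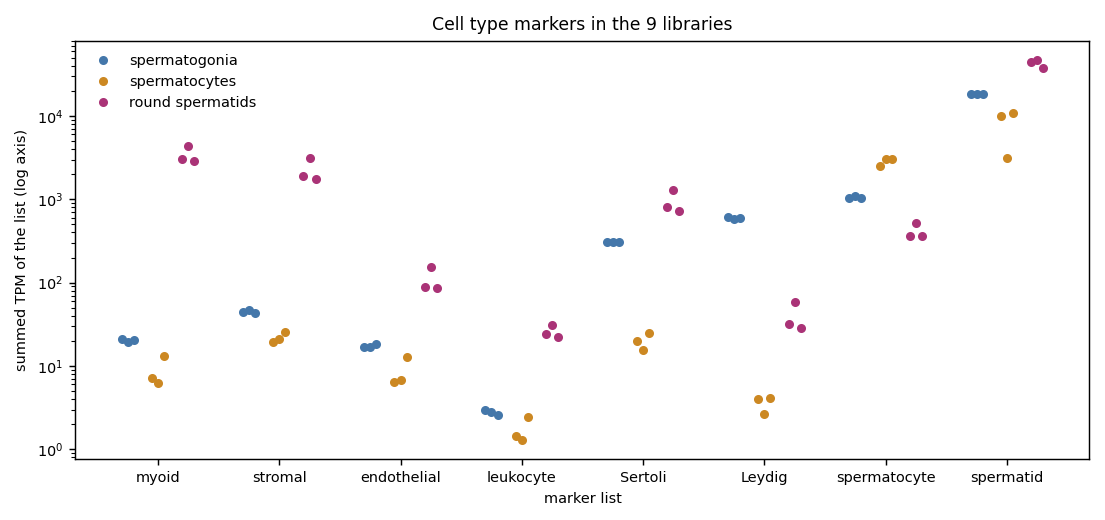
Summed TPM of each list of cell type markers in each of the 9 libraries, on a log axis, with 1 point per library coloured by stage. Myoid markers lie between 2869 and 4317 TPM in round spermatids and under 21 TPM in every other library, while Leydig cell markers are highest in spermatogonia and lowest in spermatocytes.

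The 10 markers did not share one course. Mean CPM was highest in spermatogonia for 5 of them (UCHL1, NANOS3, SOX3, POU3F1 and TSPAN33), in spermatocytes for ETV5, and in round spermatids for 4 (ZBTB16, BCL6B, ID4 and FOXO1). In spermatocytes against spermatogonia 5 markers were lower (UCHL1, NANOS3, SOX3, POU3F1 and ZBTB16) and 1 was higher (ETV5), while 44% of all tested genes were called lower and 29.3% higher. In round spermatids against spermatogonia 5 were lower (UCHL1, NANOS3, POU3F1, ETV5 and TSPAN33) and 3 were higher (ID4, BCL6B and FOXO1), beside 39.7% of all tested genes called lower and 39.5% higher. Round spermatids set against spermatocytes had 5 markers higher (ID4, BCL6B, FOXO1, ZBTB16 and SOX3) and 2 were lower (ETV5 and TSPAN33), beside 42.7% of tested genes called higher and 36.4% lower. Most tested genes were called in each comparison, so a call does not set a marker apart from genes at large. The median log2 fold change of the 10 markers was -0.81 in spermatocytes against spermatogonia, -0.91 in round spermatids against spermatogonia and 0.82 in round spermatids against spermatocytes, and that of all tested genes was -0.32, 0.00 and 0.19 in the same order of comparisons.

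**Figure D2:**
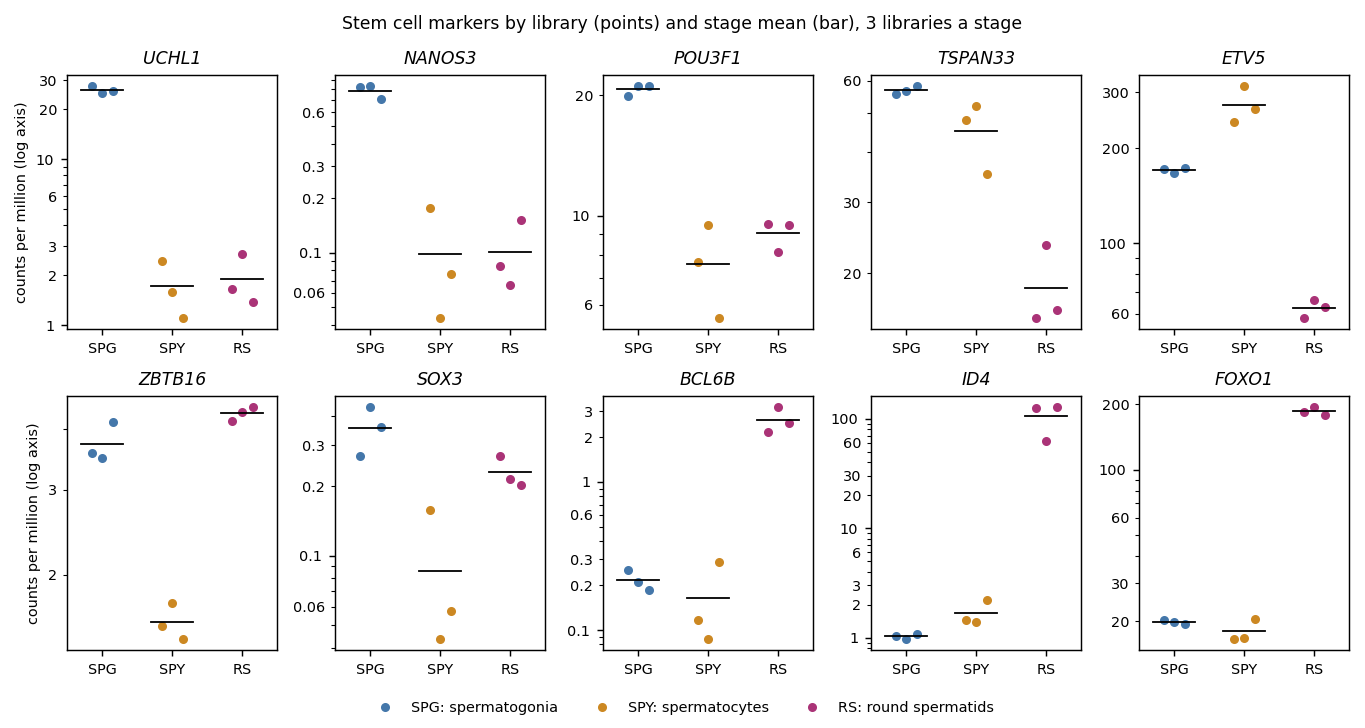
CPM of the 10 markers in each library, on a log axis per panel, with points for libraries and bars for the mean of 3 libraries a stage. UCHL1, NANOS3 and POU3F1 are higher in all spermatogonia libraries than in every library of the other stages, and BCL6B, ID4 and FOXO1 are highest in all round spermatid libraries.

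UCHL1, the ubiquitin hydrolase used to stain spermatogonia, was lower in both later stages by the largest fold of the 10 markers. Its level was 27.6, 24.9 and 25.7 CPM in the spermatogonia libraries, 2.45, 1.59 and 1.11 CPM in the spermatocyte libraries and 1.64, 2.68 and 1.39 CPM in the round spermatid libraries. The spermatogonia libraries lay above all 6 others, and the other stages overlapped. UCHL1 was 15.2-fold lower in spermatocytes than in spermatogonia (log2 fold change -3.92 ± 0.309, adjusted p = 2.59e-06) and 13.7-fold lower in round spermatids than in spermatogonia (-3.77 ± 0.304, adjusted p = 1.15e-06). Round spermatids and spermatocytes did not pass the test against each other, with a difference of 0.15 and a 95% interval of -0.52 to 0.82 on the log2 scale. The gene, ENSSSCG00000022945, lies on chromosome 8 at 32353766 to 32367288 of Sscrofa11.1 in the RefSeq annotation.

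TSPAN33 encodes a membrane protein of the TspanC8 tetraspanins, which bind the protease ADAM10 and carry it to the cell surface, and in the human testis its RNA marks the earliest spermatogonia. It had 55.7, 56.7 and 58.2 CPM in spermatogonia, 47.8, 52.0 and 35.3 CPM in spermatocytes and 15.5, 23.4 and 16.2 CPM in round spermatids. Each stage lay wholly below the one before it. In round spermatids TSPAN33 was 3.09-fold lower than in spermatogonia (-1.63 ± 0.187, adjusted p = 1.61e-05) and 2.45-fold lower than in spermatocytes (-1.29 ± 0.186, adjusted p = 8.08e-05). The difference of spermatocytes against spermatogonia was -0.34 with a 95% interval of -0.74 to 0.07 (adjusted p = 0.120), close to the median of all genes in that comparison. It was called lower on library totals alone (-0.76, adjusted p = 0.00898), on TPM, and without round spermatids 2 (-0.33, adjusted p = 0.0461). TSPAN33 (ENSSSCG00000016570) is annotated on chromosome 18 at 19493610 to 19514361.

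NANOS3, the RNA-binding protein that in the mouse protects early germ cells from death, had few estimated counts in every library. On TPM, which allows for gene length, its mean of 4.22 TPM in spermatogonia stood at or above 56.0% of all genes. Its libraries held 49 to 59 estimated counts in spermatogonia, 2 to 9 in spermatocytes and 4 to 9 in round spermatids. These equal 0.824, 0.835 and 0.704 CPM in spermatogonia, 0.176, 0.0437 and 0.0765 CPM in spermatocytes, and 0.0846, 0.0662 and 0.152 CPM in round spermatids. Every spermatogonia library was above every other library. NANOS3 was 7.72-fold lower in spermatocytes than in spermatogonia (-2.95 ± 0.426, adjusted p = 0.000124) and 7.68-fold lower in round spermatids than in spermatogonia (-2.94 ± 0.411, adjusted p = 7.03e-05). Between round spermatids and spermatocytes the difference was 0.01 with a wide interval of -1.22 to 1.24, which does not exclude a difference of about 2-fold in either direction. Its identifier is ENSSSCG00000013759, and the RefSeq table used here gave no position for it.

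Of the 4 markers that respond to GDNF in mouse germ cells, POU3F1 and ETV5 were lower in round spermatids than in spermatogonia, and BCL6B and ID4 were higher. POU3F1, a POU-domain transcription factor also known from glia, had 19.9, 21.1 and 21.1 CPM in spermatogonia, 7.68, 9.47 and 5.57 CPM in spermatocytes and 9.53, 8.12 and 9.50 CPM in round spermatids. All spermatogonia libraries were above the rest, and the later stages overlapped. It was 2.73-fold lower in spermatocytes than in spermatogonia (-1.45 ± 0.180, adjusted p = 4.48e-05) and 2.29-fold lower in round spermatids than in spermatogonia (-1.19 ± 0.178, adjusted p = 0.000114). Round spermatids against spermatocytes gave 0.26 with a 95% interval of -0.14 to 0.66, which passed the test on library totals alone (0.72, adjusted p = 0.00217) and without spermatocytes 3 (0.44, adjusted p = 0.0297). POU3F1 (ENSSSCG00000003646) is on chromosome 6 at 94025133 to 94028053.

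ETV5, an ETS transcription factor without which male mice lose their spermatogonia, was the marker with the highest level in spermatocytes. It had 171, 167 and 174 CPM in spermatogonia, 242, 314 and 266 CPM in spermatocytes, and 58.3, 66.5 and 63.1 CPM in round spermatids, with no overlap between any stages. In round spermatids it was 4.37-fold lower than in spermatocytes (-2.13 ± 0.119, adjusted p = 6.56e-08) and 2.73-fold lower than in spermatogonia (-1.45 ± 0.117, adjusted p = 1.16e-06). In spermatocytes it was 1.60-fold higher than in spermatogonia (0.68 ± 0.115, adjusted p = 0.000352), and this rise depended on the scaling. With library totals alone it was 0.26 (adjusted p = 0.1001) and on log2(TPM + 0.1) it was 0.15 (adjusted p = 0.576). The median of all tested genes shifts with the scaling too, and relative to that median ETV5 stood at 1.01 with the main scaling, 1.001 with library totals alone and 0.89 on TPM. ETV5 (ENSSSCG00000023229) lies on chromosome 13 at 123873346 to 123930292.

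BCL6B, a zinc finger repressor related to BCL6, was scarce in the first stages. It had 13 to 18 estimated counts in spermatogonia libraries, 4 to 15 in spermatocyte libraries and 128 to 193 in round spermatid libraries. The levels were 0.256, 0.212 and 0.187 CPM in spermatogonia, 0.118, 0.0873 and 0.287 CPM in spermatocytes and 2.17, 3.19 and 2.52 CPM in round spermatids. All round spermatid libraries were above the rest. BCL6B was 11.9-fold higher in round spermatids than in spermatogonia (3.58 ± 0.338, adjusted p = 3.66e-06) and 15.6-fold higher in round spermatids than in spermatocytes (3.96 ± 0.366, adjusted p = 2.54e-06). The other pair overlapped, with a difference of -0.39 for spermatocytes against spermatogonia and an interval of -1.35 to 0.57. Without spermatocytes 4 that difference was -1.07 and passed the test (adjusted p = 0.0414). Spermatocytes 4 had the highest myoid sum of its stage (23.2 CPM, against 12.3 and 10.3 CPM). Its sums of Sertoli, endothelial, stromal, leukocyte and spermatid markers were the highest too, and those of Leydig and spermatocyte markers were not. Whether these sums bear on BCL6B was not tested. BCL6B (ENSSSCG00000017927) is on chromosome 12 at 52427405 to 52433231.

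ID4, an inhibitor of DNA binding that holds E proteins away from DNA and marks cells with stem cell activity in the mouse, showed the largest difference of all 10 markers. It was at 1.04, 0.977 and 1.08 CPM in spermatogonia, 1.45, 1.40 and 2.22 CPM in spermatocytes, and 124, 62.9 and 127 CPM in round spermatids. The round spermatid libraries were far above the rest, with round spermatids 2 the lowest of them. The rise was 102-fold in round spermatids over spermatogonia (6.67 ± 0.329, adjusted p = 5.02e-08) and 61.8-fold in round spermatids over spermatocytes (5.95 ± 0.318, adjusted p = 4.90e-08). Spermatocytes against spermatogonia differed by 0.72 with an interval of 0.05 to 1.39 and did not pass (adjusted p = 0.0521), although no library of these stages overlapped. That difference passed with several other settings, among them without round spermatids 2 (adjusted p = 0.00513), and on log2(TPM + 0.1) it was 0.14 (adjusted p = 0.634). ID4 (ENSSSCG00000024312) is on chromosome 7 at 15281535 to 15284895.

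FOXO1, a forkhead factor that growth factor signalling keeps out of the nucleus, was the most abundant marker per length in round spermatids. It had 20.3, 19.8 and 19.4 CPM in spermatogonia, 16.6, 16.8 and 20.6 CPM in spermatocytes, and 185, 194 and 178 CPM in round spermatids. FOXO1 was 9.37-fold higher in round spermatids than in spermatogonia (3.23 ± 0.118, adjusted p = 1.12e-08) and 10.3-fold higher in round spermatids than in spermatocytes (3.37 ± 0.119, adjusted p = 4.21e-09). The first stages overlapped, with a difference of -0.14 and an interval of -0.38 to 0.10 for spermatocytes against spermatogonia. Its sign in that comparison changed with the scaling, and on library totals alone FOXO1 was called lower (-0.56, adjusted p = 0.00589), as it was on TPM (-0.67, adjusted p = 0.0262) and without spermatocytes 4 (-0.25, adjusted p = 0.0331). FOXO1 (ENSSSCG00000009370) is on chromosome 11 at 15317222 to 15410059.

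ZBTB16, also called PLZF, a zinc finger repressor needed for self-renewal in the mouse, was lowest in spermatocytes. Its levels were 3.58, 3.50 and 4.14 CPM in spermatogonia, 1.57, 1.75 and 1.47 CPM in spermatocytes and 4.16, 4.35 and 4.44 CPM in round spermatids. The spermatocyte libraries lay below all others. ZBTB16 was 2.34-fold lower in spermatocytes than in spermatogonia (-1.23 ± 0.155, adjusted p = 4.95e-05) and 2.71-fold higher in round spermatids than in spermatocytes (1.44 ± 0.155, adjusted p = 8.75e-06). Round spermatids against spermatogonia gave 0.21 with an interval of -0.12 to 0.54, and -0.36 on log2(TPM + 0.1), with neither passing. ZBTB16 (ENSSSCG00000030095) spans chromosome 9 from 41639536 to 41839254.

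SOX3, an X-linked transcription factor of early spermatogonia in the mouse, had the fewest counts beside NANOS3 and BCL6B. Libraries held 19 to 31 estimated counts in spermatogonia, 2 to 8 in spermatocytes and 12 to 16 in round spermatids. These are 0.270, 0.439 and 0.359 CPM in spermatogonia, 0.157, 0.0437 and 0.0574 CPM in spermatocytes and 0.271, 0.215 and 0.203 CPM in round spermatids. Spermatocytes were below both other stages, which overlapped. SOX3 was 4.02-fold lower in spermatocytes than in spermatogonia (-2.01 ± 0.451, adjusted p = 0.00231). Its 2.60-fold rise in round spermatids over spermatocytes (1.38 ± 0.481, adjusted p = 0.0221) did not hold when spermatocytes 3 (adjusted p = 0.0772), spermatocytes 4 (adjusted p = 0.0766) or round spermatids 1 (adjusted p = 0.0628) was left out. Round spermatids against spermatogonia gave -0.63 with an interval of -1.46 to 0.21, and -0.92 on log2(TPM + 0.1), where it passed (adjusted p = 0.00631). SOX3 (ENSSSCG00000022501) is on chromosome X at 115017704 to 115020601.

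**Figure D3:**
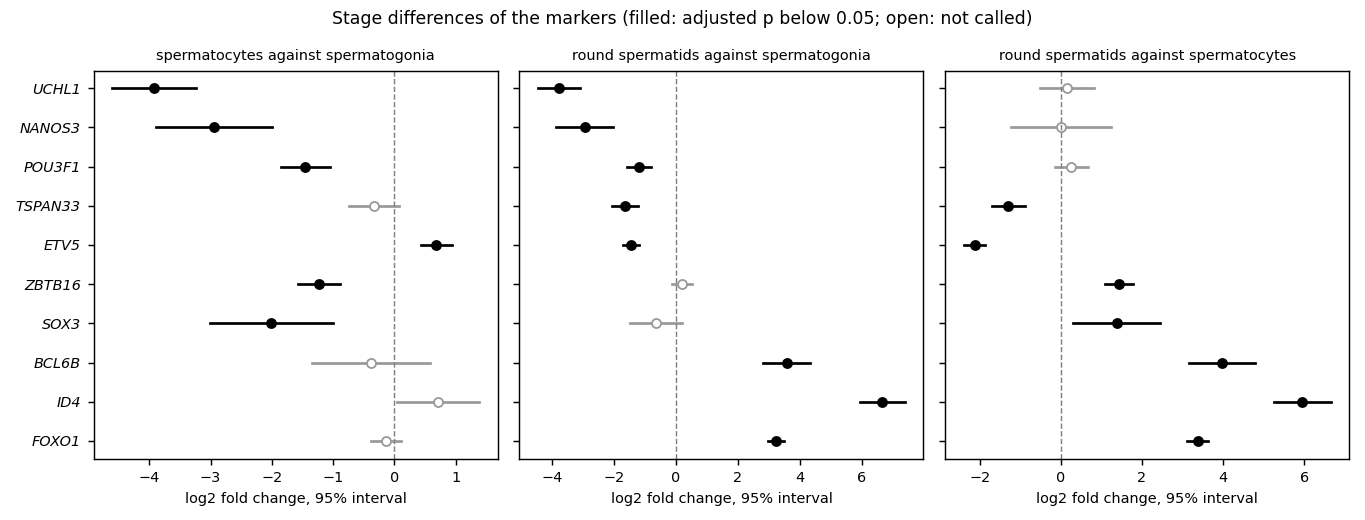
Log2 fold change of each marker with its 95% interval in the 3 comparisons, where filled points passed an adjusted p of 0.05 and open points did not. The interval for ID4 in round spermatids against spermatogonia spans 5.93 to 7.40, and those of UCHL1, NANOS3 and POU3F1 lie below 0 in both comparisons with spermatogonia.

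Put in patterns made after the values were seen, 3 markers were called lower in both later stages than in spermatogonia (UCHL1, NANOS3 and POU3F1), as were 21.5% of all tested genes. The 3 that were called higher in round spermatids than in both other stages (BCL6B, ID4 and FOXO1) stand beside 30.1% of tested genes with that pattern. ETV5 and TSPAN33 were called lower in round spermatids than in both other stages, as were 26% of tested genes, and ZBTB16 and SOX3 lower in spermatocytes than in both other stages, as were 26.2%. ETV5 was also called higher in spermatocytes than in both other stages, as were 19.5% of tested genes. All 10 markers were called in at least 1 comparison.

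ID4, BCL6B and FOXO1 were called higher in round spermatids, a stage in which many somatic markers were called higher too. Of all tested genes, 39.5% were called higher there than in spermatogonia and 42.7% higher than in spermatocytes. Leydig cell markers went both ways against spermatogonia, with 2 higher and 5 lower. All 8 myoid, 6 stromal and 8 endothelial markers found were called higher in round spermatids than in spermatogonia and in spermatocytes, as were 11 of the 12 Sertoli cell markers against spermatogonia and 12 of 12 against spermatocytes. On TPM the rises of the Sertoli cell genes CLDN11 and INHA over spermatogonia were lost, and that of the endothelial gene ESAM changed sign (-0.19, adjusted p = 0.526). Within round spermatids, BCL6B (3.19 CPM) and FOXO1 (194 CPM) were highest in round spermatids 2, and ID4 (62.9 CPM) was lowest there. The myoid sum of round spermatids 2 was the lowest of its stage on the same CPM scale (4918 CPM, against 6227 and 6188 CPM). On TPM it was the highest (4317 TPM, against 3031 and 2869 TPM), as were the sums of spermatid and spermatocyte markers of that library. The order on TPM therefore does not set the somatic markers of round spermatids 2 apart. The endothelial sum was highest there on CPM (252 CPM, against 233 and 236 CPM) and on TPM (152 TPM, against 88.4 and 86.4 TPM). Leaving out that library gave a log2 fold change over spermatogonia of 6.93 for ID4, 3.41 for BCL6B and 3.19 for FOXO1. The part of somatic cells in these rises was not tested. In spermatogonia, where UCHL1, POU3F1, NANOS3 and TSPAN33 were highest, Leydig cell markers were also highest (583 to 614 TPM). Spermatid markers (18269 to 18465 TPM) and spermatocyte markers (1035 to 1083 TPM) were present there as well. The part of such cells in the levels of these 4 markers was not tested either.

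Compared per length in TPM, ETV5 and TSPAN33 were the most abundant markers in spermatogonia with means of 85.9 ± 1.65 and 48.3 ± 1.37 TPM. UCHL1 (30.0 ± 1.35 TPM), POU3F1 (21.9 ± 0.886 TPM) and FOXO1 (15.6 ± 0.264 TPM) followed, and the libraries of these 5 genes did not overlap. NANOS3 was at 4.22 ± 0.374 TPM and ZBTB16 at 1.08 ± 0.107 TPM. ID4 (0.509 ± 0.0246 TPM) and SOX3 (0.469 ± 0.120 TPM) overlapped, and BCL6B was lowest (0.0886 ± 0.0152 TPM). In spermatocytes ETV5 (95.9 ± 13.1 TPM) and TSPAN33 (26.4 ± 3.90 TPM) again led, ahead of FOXO1 (9.87 ± 1.82 TPM) and POU3F1 (5.53 ± 1.21 TPM), and every other marker averaged 1.35 TPM or less. In round spermatids the order began with FOXO1 (99.0 ± 34.7 TPM), ID4 (32.4 ± 3.51 TPM) and ETV5 (21.4 ± 7.87 TPM), of which ID4 and ETV5 overlapped. TSPAN33 (11.01 ± 6.15 TPM), POU3F1 (6.32 ± 1.31 TPM) and UCHL1 (1.58 ± 1.07 TPM) came next, and ZBTB16, BCL6B, NANOS3 and SOX3 were all under 1 TPM on average. Across libraries TSPAN33 overlapped both ETV5 and POU3F1, but within each round spermatid library it lay below ETV5 and above POU3F1. Among all genes of the table, ETV5 stood at or above 89.7% of genes in spermatogonia and FOXO1 at or above 94.7% in round spermatids, while BCL6B stood at or above 23.8% in spermatogonia.

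Family relatives of the markers were examined as a fixed list of 25 genes, of which 22 were found and 20 passed the filter. In spermatocytes against spermatogonia 3 were higher and 13 lower, with a median log2 fold change of -0.89. On log2(TPM + 0.1) 1 was higher and 15 were lower, as UCHL3 and ETV4 did not pass. Against spermatogonia, round spermatids had 13 higher and 6 lower, with a median of 1.65, and in round spermatids against spermatocytes 14 were higher and 5 lower, with a median of 2.61. Of all tested genes, 29.3% were higher and 44% lower in spermatocytes against spermatogonia (median -0.32). Round spermatids had 39.5% higher and 39.7% lower than spermatogonia (median 0.00), and 42.7% higher and 36.4% lower than spermatocytes (median 0.19). The same shares belong beside the counts of the lists that follow. The ID, FOXO, ETS and BCL6 relatives were higher in round spermatids, where many of the somatic markers named above were also higher. ID2 was at 312 ± 151 CPM in round spermatids, against 1.27 ± 0.114 CPM in spermatogonia (7.94 ± 0.613, adjusted p = 8.59e-07), and ID3 at 113 ± 34.1 CPM, against 2.06 ± 0.223 CPM (5.78 ± 0.586, adjusted p = 6.15e-06). ID2, like ID4, was lowest in round spermatids 2 (139 CPM, against 416 and 381 CPM), and ID3, unlike ID4, was highest there (152 CPM, against 99.5 and 88.0 CPM).

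ETV5 differed from its PEA3-group relatives ETV1 and ETV4, which were called higher in round spermatids than in spermatogonia (3.64 ± 0.317, adjusted p = 1.98e-06, and 3.80 ± 0.222, adjusted p = 1.40e-07) while ETV5 was called lower. BCL6 followed BCL6B, with 3.26 ± 0.304 in round spermatids against spermatogonia (adjusted p = 3.35e-06). FOXO3, FOXO4 and FOXO6 were called higher in round spermatids than in spermatogonia, as FOXO1 was, and lower in spermatocytes than in spermatogonia, where FOXO1 did not pass. The rise of FOXO6 in round spermatids over spermatogonia missed the threshold on TPM (adjusted p = 0.0502). UCHL5, a proteasome-bound relative of UCHL1, was 3.07-fold higher in spermatocytes than in spermatogonia (1.62 ± 0.103, adjusted p = 9.44e-07), where UCHL1 was 15.2-fold lower. UCHL3 was also higher there (0.83 ± 0.101, adjusted p = 3.93e-05). BAP1, the other relative of UCHL1 listed, was lower there as UCHL1 was (-0.77 ± 0.130, adjusted p = 0.000368). It was lower in round spermatids than in spermatogonia too (-1.87 ± 0.133, adjusted p = 4.98e-07). Among TspanC8 members, TSPAN10 and TSPAN17 fell with TSPAN33 in round spermatids against spermatogonia (-1.19 ± 0.148, adjusted p = 3.01e-05, and -2.50 ± 0.175, adjusted p = 4.28e-07), and TSPAN14, TSPAN15 and TSPAN5 rose (2.88 ± 0.263, adjusted p = 2.82e-06, 1.57 ± 0.214, adjusted p = 5.94e-05, and 1.12 ± 0.182, adjusted p = 0.000218). The rise of TSPAN5 did not pass on TPM (adjusted p = 0.0810). NANOS2, which in the mouse keeps the stem cell state, did not pass the filter and averaged 0.842 TPM in spermatogonia and 0.102 TPM in round spermatids, with 0 listed in each spermatocyte library.

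**Figure D4:**
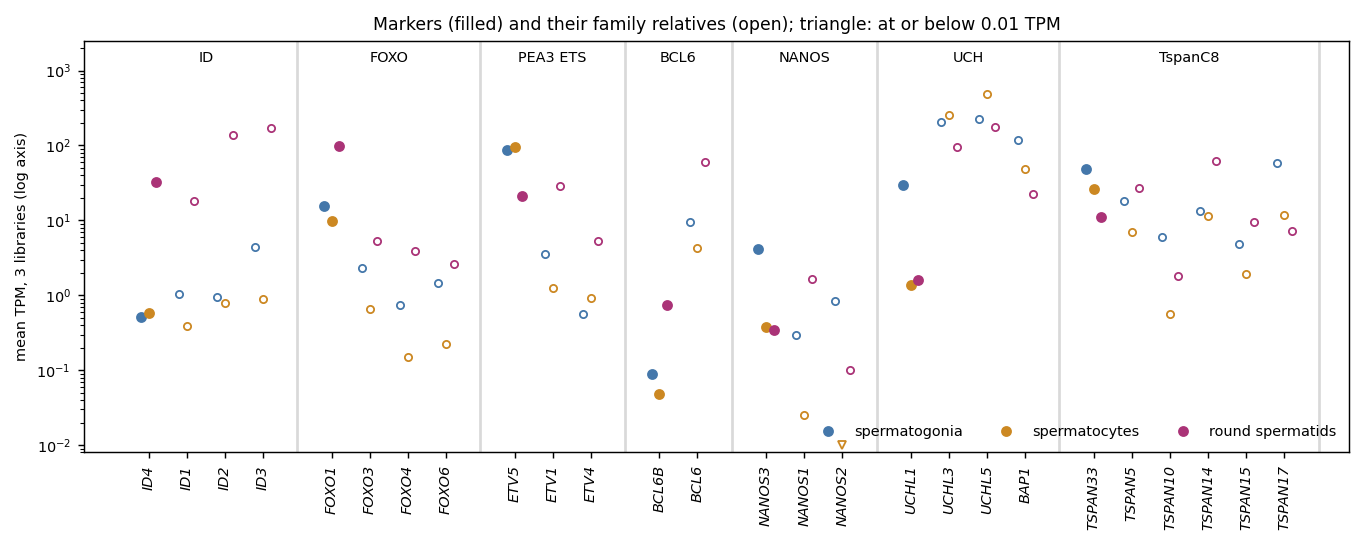
Mean TPM over 3 libraries of 7 markers (filled) and of their relatives (open) by stage, on a log axis, grouped by family, with a triangle for values at or below 0.01 TPM. All 4 ID genes are highest in round spermatids, whereas ETV5 is lowest in round spermatids and its relatives ETV1 and ETV4 are highest there.

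Genes whose products bind or regulate the markers formed a list of 15, of which 13 were found and tested. In spermatocytes against spermatogonia 9 were higher and 3 lower, a split that depended on the scaling, with 4 higher and 4 lower on library totals alone and 2 higher and 4 lower on log2(TPM + 0.1). ADAM10, the protease that TSPAN33 binds, was higher in spermatocytes (1.39 ± 0.133, adjusted p = 8.36e-06), as was CUL3 (1.22 ± 0.0987, adjusted p = 3.06e-06), a ubiquitin ligase scaffold that ZBTB16 recruits. Round spermatids had 7 higher and 5 lower than spermatogonia, and 4 higher and 5 lower on log2(TPM + 0.1). SGK1, a kinase that phosphorylates FOXO factors, was higher there (4.12 ± 0.109, adjusted p = 2.74e-09) with 436, 428 and 437 CPM in round spermatids, against 25.1, 24.9 and 24.8 CPM in spermatogonia. TCF4, an E protein that ID4 binds, was also higher (2.86 ± 0.474, adjusted p = 0.000243), and CNOT1, the scaffold of the deadenylase that NANOS proteins recruit, was lower (-1.62 ± 0.160, adjusted p = 5.18e-06), as was HDAC1 (-1.05 ± 0.144, adjusted p = 6.09e-05). Against spermatocytes, round spermatids had 5 higher and 6 lower.

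Other genes of undifferentiated spermatogonia moved in both directions. Of 25 listed, 19 were found and 17 tested, and in spermatocytes against spermatogonia 5 were higher and 9 lower, with a median of -0.88. On log2(TPM + 0.1) 3 were higher and 10 lower, as ITGB1 and EOMES did not pass. The receptors RET, which carries the GDNF signal, and FGFR3 fell most (-3.11 ± 0.178, adjusted p = 6.75e-07, and -3.10 ± 0.256, adjusted p = 3.35e-06), and the adhesion genes CDH1 and EPCAM rose most (1.91 ± 0.191, adjusted p = 1.08e-05, and 1.66 ± 0.178, adjusted p = 1.64e-05). In round spermatids against spermatogonia 8 were higher and 6 lower. FGFR3 and PIWIL4 were lower (-2.93 ± 0.252, adjusted p = 1.81e-06, and -2.06 ± 0.337, adjusted p = 0.000225), and CD9 and ITGB1, surface proteins of many somatic cells, were higher (4.04 ± 0.511, adjusted p = 3.32e-05, and 3.15 ± 0.191, adjusted p = 1.73e-07). Against spermatocytes, 10 were higher and 4 lower in round spermatids.

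Of the further genes that GDNF raises in mouse germ cells, 7 were found of 8. In round spermatids against spermatogonia 5 were higher and 2 lower. The rise of LHX1 among these 5 was lost on TPM (0.00364, adjusted p = 0.986). EGR2 (5.35 ± 0.260, adjusted p = 4.70e-08) and CCND2 (4.42 ± 0.218, adjusted p = 5.02e-08) were higher, and TBXT (-2.37 ± 0.193, adjusted p = 1.24e-06) and MYCN (-1.19 ± 0.165, adjusted p = 6.32e-05) were lower. In spermatocytes against spermatogonia 2 were higher, EGR3 and LHX1, and 3 lower, TBXT, EGR2 and MYCN. Of the genes of differentiating spermatogonia, 7 were found of 10 and 6 tested, with 2 higher and 2 lower in spermatocytes against spermatogonia. The retinoic acid target STRA8 and the meiotic cohesin REC8 were lower (-1.87 ± 0.226, adjusted p = 3.72e-05, and -2.43 ± 0.189, adjusted p = 2.46e-06), like UCHL1 and POU3F1. The rises of SYCP3 and SOHLH2 there were lost on TPM, and that of SOHLH2 changed sign there and on library totals alone. With RLE size factors or without the 50 most abundant genes, 3 were higher.

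The genes whose level over the 9 libraries was most like that of each marker were found by Pearson's r of log2 CPM among about 11872 genes with a symbol and a mean of at least 1 CPM. These values describe likeness alone, since 9 libraries in 3 stages share the differences between stages. FOXO1 was most like RGS2 and CNN3 (r of 0.9996 for both when rounded), and ID4 most like LOX and FGD6 (0.998 each). LOX, the enzyme that cross-links collagen, was at 114, 62.0 and 117 CPM in round spermatids, the same order of libraries as ID4. BCL6B was closest to SLC38A2 and ADGRL2 (0.996 each), which were likewise highest in round spermatids 2 within their stage. ETV5 was closest to SEC24B and C6orf62 (0.999 each), TSPAN33 to VPS33B (0.999) and MIS18A (0.998), and ADORA1 was among those closest to POU3F1 (0.989). UCHL1 was closest to the small heat shock gene HSPB9 (0.997) and the autophagy protease ATG4D (0.996), and ZBTB16 to ADSS1 and UQCC3 (0.993 each). NANOS3 was closest to BFSP1 (0.977) and DPP6 (0.976), and SOX3 to CREB3L4 (0.978) and PARS2 (0.967), with values for both markers that rest on few counts.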

How the data were processed

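Paired reads came from a directional kit on total RNA of pig testis cells, per the labels' protocols. The submitters' processing notes name the genome build Sscrofa11.1 and bcl2fastq. Not given in the sources used here are the aligner, the quantifier, the annotation and the use of strand in counting, so genes that overlap or share reads with relatives are uncertain. The authors deposited estimated counts and TPM per gene. The deposited TPM columns fall short of the unit's nominal sum by 3.19 to 11.8%. Round spermatid columns carry the sample titles. Spermatogonia columns were matched by the KIT heading and spermatocyte columns by the pachytene heading, each with the numbers of the titles, which the labels do not state outright. The other 6 of the 15 library columns were not used.

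Estimated counts were rounded to whole numbers, filtered with filterByExpr and fitted together with TMM factors (0.774 to 1.26) in edgeR 4.0.16 under R 4.3.3, with glmQLFit and glmQLFTest and a common dispersion of 0.0316. The standard error is the size of the log2 fold change divided by the square root of F. DESeq2 1.42.0 and limma 3.58.1 were run as alternatives, with limma on log2(TPM + 0.1), log2(TPM + 1) and voom values, as were other scalings, filters, single stage pairs, a sum of the spermatogonia libraries, a replicate block and each library left out. The procedure was tested on simulated data. Spermatogonia libraries were kept as separate replicates because they differed by more than counting error (median chi-square of 0.802 to 0.863 per gene, against 0.455 from counting alone). That spread is well below the 2.28 to 22.6 of the other stages and may be technical, and it does not show that they are separate biological samples. Of the fit with the spermatogonia libraries summed, the closing section gives the direction of called differences, a SOX3 result and a count of genes. Fold changes of the markers in that fit are not given there. At these depths, counting error alone gives a coefficient of variation of 0.861% for ETV5 and 48.1% for SOX3 in spermatocytes, and estimated counts are not independent molecules.

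The markers, the lists and the tests were chosen with earlier results of these data known. Named genes are all 10 markers, the 2 largest rises and falls per list and comparison among called genes with at least 1 CPM in the higher stage, the most abundant marker per cell type list and stage, the 2 nearest genes per marker, and genes that spell out a count of 5 or fewer; relatives described with a marker were chosen after their values were seen. Of the nearest genes, 1 is not reported here. Symbols came from a table of identifiers and symbols, positions from RefSeq for 9 of 10 markers.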

Additional observations from a re-analysis of the deposited data

How the results depend on the processing

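Low counts limit NANOS3, SOX3 and BCL6B, and TMM factors shift every level in spermatocytes: the median of all genes in spermatocytes against spermatogonia was -0.32, -0.14 with RLE size factors, -0.74 with library totals alone and -0.09 without the 50 most abundant genes. The share of calls that were higher there was 39.98%, and 46.36, 26.83 and 48.44% with those settings and 22.58% on log2(TPM + 0.1). It was 49.87% in round spermatids against spermatogonia (34.7% on TPM) and 53.96% in round spermatids against spermatocytes (65.66% with library totals alone). Genes called higher in spermatocytes numbered 4930, but 3229 with spermatogonia summed, 2633 on log2(TPM + 0.1) and 2604 on log2(TPM + 1).

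Called differences of the markers kept their direction in every alternative that tested them. The count of markers higher in spermatocytes than in spermatogonia was 1, and 2 with RLE, without the 50 most abundant genes, without a filter, with DESeq2 and with only these stages fitted, as ID4 passed. It was 0 with library totals alone and on both TPM scales, as ETV5 did not pass (0.15 on log2(TPM + 1)), and 1 to 2 with a library left out, 2 without round spermatids 2. The count lower was 5, and 3 with a minimum of 1 CPM in 3 libraries, which removed NANOS3 and SOX3. It was 7 with library totals alone and on both TPM scales, with FOXO1 and TSPAN33, and 5 to 7 with a library left out, 7 without spermatocytes 4 (with BCL6B and FOXO1) and 6 without round spermatids 2 (with TSPAN33). The rise of SOX3 in round spermatids over spermatocytes did not pass without a filter (adjusted p = 0.0602), on log2(TPM + 1) (adjusted p = 0.0835), or with spermatogonia summed (adjusted p = 0.0576).

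The values that took the other sign were not called. FOXO1 in spermatocytes against spermatogonia was 0.0397 with RLE, 0.0400 with DESeq2, 0.0987 without the 50 most abundant genes, 0.0811 without a filter and 0.0618 with only these stages, but called lower with library totals alone (-0.56), on log2(TPM + 0.1) (-0.67) and log2(TPM + 1) (-0.62), and without spermatocytes 4 (-0.25). ZBTB16 in round spermatids against spermatogonia was -0.36 and -0.18 on log2(TPM + 0.1) and log2(TPM + 1). NANOS3 in round spermatids against spermatocytes was -0.10 with RLE and with DESeq2, -0.19 without the 50 genes and without a filter, -0.0151 on log2(TPM + 1), and -0.41 to 0.70 with a library left out (-0.33 and -0.17 without spermatocytes 3 and 4, -0.41 without round spermatids 3). UCHL1 there was -0.0438 without the 50 genes, -0.0439 without a filter, and -0.19 to 0.49 with a library left out (-0.10 without spermatocytes 4, -0.19 without round spermatids 2). The causes were not tested.

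Same-numbered libraries did not deviate together (correlations of -0.048 to 0.028, and -0.090 to 0.093 for libraries of different numbers). With 3 libraries a stage and a spread in spermatogonia that may be technical, these values cannot show whether a number marks a shared source. With the replicate number as a block, SOX3 in round spermatids against spermatocytes did not pass (1.24, adjusted p = 0.0940), UCHL1 and NANOS3 there were -0.0786 and -0.13, no other call of a marker changed, and 4638 genes were higher and 7277 lower in spermatocytes than in spermatogonia, against 4930 and 7400 without the block.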
